A study of Mus musculus with 8 samples.

Results

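The Id genes encode the inhibitor of DNA binding proteins, a small family of helix-loop-helix proteins. Id1, Id2 and Id3 were taken from the deposited table by gene symbol, which gave 3 of its 10453 genes, and Id4 was not analysed here. They were selected on the strong rise of Id3 in the KO cells. That choice used the comparison of KO with WT cells, so every value of the Id genes across genotypes below is a description without a test. The contrast of footprints with input inside one genotype was tested, although the choice used these readouts too. It shares its library values with that choice, KO input above all, so its p-values for the Id genes are not independent of the choice. They are given as a description of levels.

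All libraries came from B16, a mouse melanoma line that makes pigment, grown in DMEM with 10% FBS and penicillin/streptomycin. Mettl5, which encodes an rRNA methyltransferase, had been targeted by CRISPR/Cas9 in the cells called KO, and the cells called WT are given as wild type. Both genotypes were treated with cycloheximide before lysis to hold ribosomes on mRNA, and gave 2 input RNA libraries and 2 libraries of ribosome-protected fragments (footprints) each. The 4 groups were thus KO input, WT input, KO footprints and WT footprints. The labels do not say whether the KO cells were 1 clone or a pool, or whether libraries came from separate cultures. The p-values below therefore weigh differences against the variation of these libraries alone, which could be purely technical.

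The Id proteins hold the helix-loop-helix dimerization domain but lack the basic region that contacts DNA. They pair with E proteins such as Tcf3, Tcf4 and Tcf12 and keep them, and their tissue-specific basic helix-loop-helix partners, off E-box DNA. Their genes are classic immediate targets of bone morphogenetic protein (BMP) signals: BMP ligands bind type I and type II serine/threonine kinase receptors, which phosphorylate SMAD1, SMAD5 and SMAD9, and these enter the nucleus with SMAD4. Id2 is also known to bind hypophosphorylated retinoblastoma family proteins.

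The genes are compact and lie on separate chromosomes. Id1 spans chr2:152736251-152737410, Id2 spans chr12:25093799-25096092 and Id3 spans chr4:136143822-136145392 in GRCm38.p6, the assembly that corresponds to the mm10 build of the files. The annotation has 0 genes overlapping any of them and 0 named pseudogene copies. The RefSeq promoter table for GRCm38.p6 held 2 of the 3 genes. The 250 bases upstream of their starts are shown because both genes were higher in KO cells and SMAD-bound elements are the best known feature of Id promoters. Both are written 5′ to 3′ on the strand of the gene, Id2 from the minus strand at chr12:25096093-25096342 and Id3 from the plus strand at chr4:136143572-136143821. Capitals mark matches to GGCGCC, a GC-rich SMAD element, and to GTCTG or its complement CAGAC, a SMAD element.
Id2: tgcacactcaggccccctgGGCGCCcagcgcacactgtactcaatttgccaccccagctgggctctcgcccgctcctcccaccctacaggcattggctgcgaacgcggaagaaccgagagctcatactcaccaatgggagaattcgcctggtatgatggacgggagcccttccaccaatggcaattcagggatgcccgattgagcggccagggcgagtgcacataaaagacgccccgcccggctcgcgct
Id3: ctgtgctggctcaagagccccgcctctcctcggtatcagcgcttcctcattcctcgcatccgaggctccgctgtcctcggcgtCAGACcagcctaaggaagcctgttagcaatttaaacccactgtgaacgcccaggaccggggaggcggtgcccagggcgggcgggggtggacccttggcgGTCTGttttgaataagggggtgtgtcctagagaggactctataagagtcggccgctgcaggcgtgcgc
Id2 held GGCGCC at 231 bases before its start and no GTCTG. Id3 held GTCTG on either strand at 167 and at 68 bases before its start and no GGCGCC. Across 32851 promoter windows of the same length, 9.6% held GGCGCC and 42.2% held GTCTG on either strand, so the Id3 matches are of a kind that many promoters have. Id2 also held an E-box (CANNTG) at 196 bases, as 66.2% of windows did. Id3 held TGACG, the core of a cAMP response element, at 170 bases, as 17.8% of windows did, and that match overlaps its distal CAGAC. GC content was 62.8% in both windows, against a median of 52.4% over all windows. These are letter matches, not measured binding sites.

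Values are the authors' normalized read counts, in which each column holds whole multiples of the value of 1 read. Recovered reads numbered between 14835551 and 18823632 in KO input, 11927567 and 14402586 in WT input, 2279456 and 2344656 in KO footprints, and 2862517 and 3098930 in WT footprints. A single read was worth 0.307 to 0.483 normalized reads in input and 2.12 to 2.95 in footprints. Footprint values of scarce mRNAs therefore move in large steps. The melanocyte markers were all present (9 of 9), with mean input levels between 205.6 and 29320 for the single genes. Their summed input level was 81980 to 82400 in KO and 72480 to 72910 in WT libraries. Summed in footprints, it was 194800 to 196400 in KO and 148600 to 149100 in WT libraries. Of the markers of other cell types, the table listed 1 of 5 for leukocytes, 4 of 6 for fibroblasts and 2 of 8 for epithelium and endothelium. The fibroblast markers summed to between 69.92 and 76.2 in KO input and between 90.77 and 93.37 in WT input, a gap that lies in Postn (19.5 in KO, 40.9 in WT), while Col1a2 averaged 38.3 in KO and 35.1 in WT. The part of these differences in the results below was not tested. Mettl5 input was lower in KO cells (log2 -0.40 ± 0.10, SE, limma adjusted p = 0.00162) and its footprints did not pass (0.12 ± 0.23, adjusted p = 0.812), and read counts of this kind do not check an edit.

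Id3, whose product binds E proteins, was the member with the largest fold difference between genotypes. Its input level was 339 and 351 normalized reads in the KO libraries, against 124 and 116 in the WT libraries. Both KO libraries lay above both WT libraries, on the contrast that the choice rested on. The means were 345 ± 8.34 in KO and 120.4 ± 5.75 in WT (SD, n = 2 each), a 2.87-fold difference. These rest on 1107 and 899 recovered reads in KO and on 312 and 241 in WT. On the log2(value + 1) scale the difference was 1.51 ± 0.064 (SE), rank 6 from the top among 10443 genes. In libraries made from whole cultures, more Id3 RNA in each cell and a larger share of cells with Id3 RNA cannot be told apart.

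Id1, the member best known as an early BMP response gene, had fewer input reads and the second largest fold difference. Its input level was 48.1 and 47.3 normalized reads in KO libraries, against 19.6 and 20.3 in WT libraries. The genotypes did not overlap. These levels rest on 157 and 121 recovered reads in KO and on 49 and 42 in WT. From the read sums, the ratio was 2.40 with a 95% interval of 1.89 to 3.08 that covers counting error only. Replicates sat within 1 normalized read of each other, which is closer than counting error on so few reads, so the SDs understate that error. The means were 47.7 ± 0.614 in KO and 19.9 ± 0.514 in WT (SD, n = 2 each), a 2.40-fold difference and a log2 difference of 1.22 ± 0.16 (SE), rank 17 of 10443. Its fold change depends more on the pseudocount than that of the others, and was 1.08 with a pseudocount of 5.

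Id2, the member with the most reads of the 3, had the smallest fold difference of the 3 in input. Its input level was 792 and 827 normalized reads in KO libraries, against 594 and 569 in WT libraries. The means were 809 ± 25.0 in KO and 582 ± 17.3 in WT (SD, n = 2 each). The means differed 1.39-fold. The log2 difference was 0.48 ± 0.036 (SE), rank 292 of 10443. All 3 Id genes thus had KO input libraries that did not overlap the WT ones and lay above them. Of all genes tested, 33.4% did so, and nothing is read from the members' count because the choice rested on this contrast. The median absolute log2 difference over all genes was 0.116 in input.

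**Figure D1:**
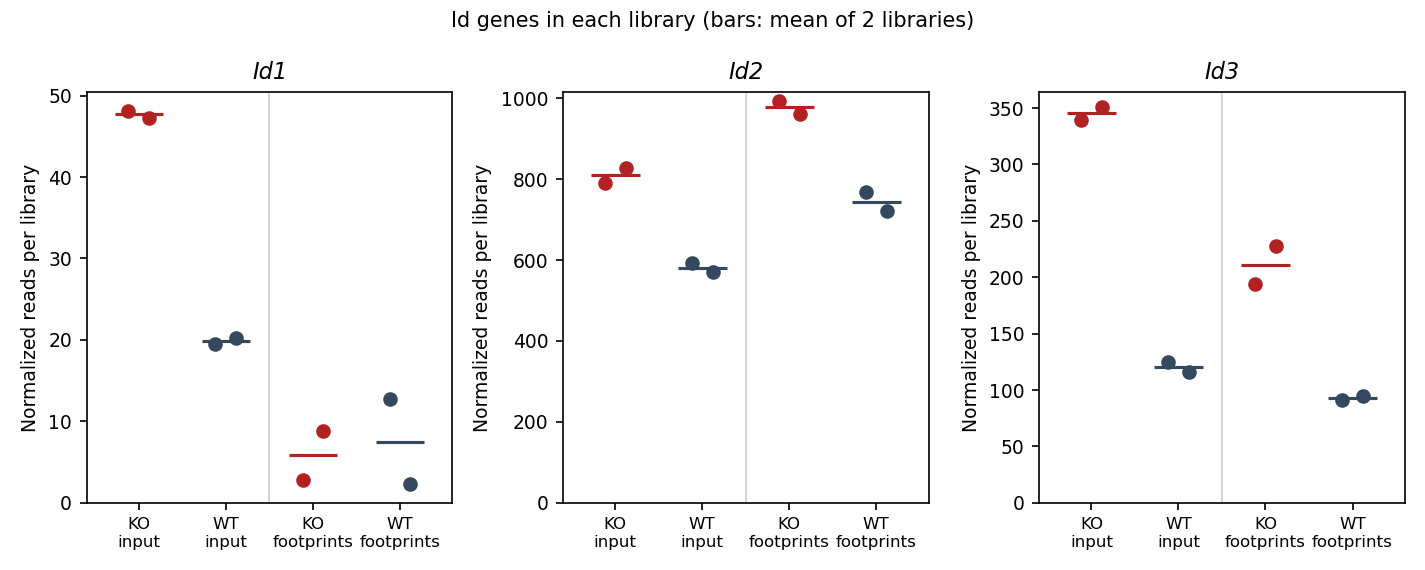
Normalized reads of Id1, Id2 and Id3 (y axes, from 0, a separate scale per gene) in each library of KO input, WT input, KO footprints and WT footprints. Points are libraries and bars are means of 2 libraries. KO input lies above WT input for each gene, while the Id1 footprint points, which stand on 1 to 6 reads each, overlap between genotypes.

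Footprints of Id3 followed the same order as its RNA. There were 194 and 227 normalized reads in KO footprint libraries, against 91.1 and 94.3 in WT footprint libraries. The KO libraries differed from each other by more than the WT ones did, yet the lower of them was still above 190. The means were 211 ± 23.5 in KO and 92.7 ± 2.21 in WT (SD, n = 2 each), a 2.27-fold difference. The counting behind them was 68 and 77 reads in KO and 43 and 41 in WT. From the read sums of 145 in KO and 84 in WT, the ratio was 2.27 with a 95% interval of 1.73 to 3.01 that covers counting error only. The log2 difference was 1.17 ± 0.20 (SE), rank 75 of 10453.

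Id2 footprints were also higher in KO cells. Its KO footprint libraries held 994 and 960.0 normalized reads, against 767 and 722 in the WT footprint libraries. The genotypes did not overlap. The means were 977 ± 24.1 in KO and 745 ± 32.1 in WT (SD, n = 2 each), a 1.31-fold difference with a counting interval of 1.18 to 1.46. The log2 difference was 0.39 ± 0.078 (SE), rank 1087 of 10453. Id2 and Id3 were thus 2 of the 3 members with KO footprint libraries entirely above WT, which 27% of all genes showed; again nothing is read from that count.

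Id1 footprints were too few to place the genotypes. The KO footprint libraries held 2.86 and 8.86 normalized reads, against 12.7 and 2.30 in the WT footprint libraries. In reads these are 1 and 3 in KO and 6 and 1 in WT, and the genotypes overlap. The log2 difference was -0.13 ± 0.79 (SE). Its sign depended on single libraries: it was -1.15 without WT footprint replicate 2 and 0.90 without WT footprint replicate 1, and 0.55 without KO footprint replicate 1 and -0.80 without KO footprint replicate 2. The read ratio of 0.753 had a counting interval of 0.162 to 2.96. That interval holds the input ratio of 2.40 as well as no change, so whether Id1 footprints moved with Id1 RNA was not detectable at this depth.

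**Figure D2:**
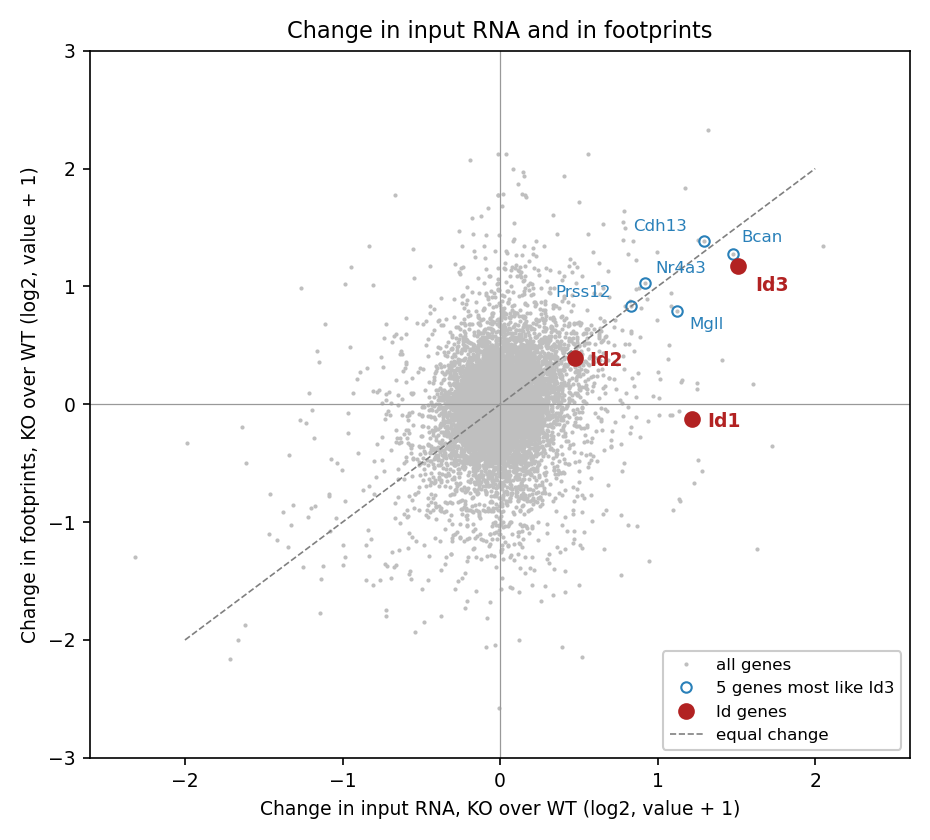
Log2 difference of KO over WT in input RNA (x axis) against that in footprints (y axis), both on log2(value + 1), with every gene in grey, the Id genes in red, the 5 genes most like Id3 ringed in blue and a dashed line of equal change. Id3 (1.51 and 1.17) and Id2 (0.48 and 0.39) lie just under the line, and Id1 (1.22 and -0.13) lies far under it on very few footprint reads.

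Translational efficiency, the footprint level per input level, stood lower in KO than in WT for each of the Id genes. Over all genes the median log2 difference was 0.0050, so being lower is common. Nothing is read from the members' count, because the choice used these values too. For Id3 the ratio of mean footprints to mean input was 0.610 in KO and 0.770 in WT, a log2 difference of -0.34 ± 0.17 (SE). For Id2 the ratio was 1.21 in KO and 1.28 in WT, a log2 difference of -0.084 ± 0.076. For Id1 it was 0.123 in KO and 0.377 in WT, a log2 difference of -1.35 ± 0.90 that rests on 4 footprint reads in KO and 7 in WT. The authors' deposited table gives log2 fold changes of translational efficiency of -0.33 for Id3, -0.083 for Id2 and -1.67 for Id1, and calls none of them up or down. Leaving out single libraries moved the value between -0.45 and -0.23 for Id3, between -0.13 and -0.04 for Id2 and between -2.37 and -0.32 for Id1. The median absolute log2 difference in efficiency over all genes was 0.209, so the Id2 value is smaller than that of a middling gene and the Id3 value somewhat larger.

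Within each genotype the Id genes differed in where their footprints stood relative to their RNA. The values compared are also those behind the choice of the genes, so the p-values below are not free of it. Here the comparison is footprints against input on the authors' scaling, and most genes pass. Of all genes, 75.7% did in KO (38.1% higher and 37.5% lower in footprints) and 79.1% in WT (39.4% higher and 39.7% lower), so passing by itself is near the background. Input covers the whole mRNA and footprints the translated part, so the ratio of a gene also moves with the share of its mRNA that is coding. Id2 was higher in footprints than in input in both genotypes. In KO cells its log2 difference was 0.27 ± 0.047 (SE, limma adjusted p = 0.00253) and in WT cells it was 0.36 ± 0.057 (adjusted p = 0.000728). This call held in every alternative tried.

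Id3 was lower in footprints than in input. In KO cells the footprints averaged 211 against 345 in input, 1.64-fold lower, with a log2 difference of -0.71 ± 0.10 (SE, limma adjusted p = 0.00118). In WT cells they averaged 92.7 against 120.4, 1.30-fold lower, with a log2 difference of -0.37 ± 0.13 (adjusted p = 0.0320). The KO difference passed in every alternative tried, whereas the WT one did not pass without WT input replicate 1 (-0.33) or without WT input replicate 2 (-0.42). It also did not pass with libraries centred on their median gene (-0.15, adjusted p = 0.33), a scaling that raises the median of all genes to 0.22 in WT and 0.20 in KO.

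Id1 had the lowest footprint level for its RNA among the Id genes. In KO cells its footprints averaged 5.86 ± 4.25 against 47.7 ± 0.614 in input (SD, n = 2 each), 8.14-fold lower, with a log2 difference of -2.98 ± 0.48 (SE, limma adjusted p = 0.00196). In WT cells its footprints averaged 7.51 ± 7.37 against 19.9 ± 0.514, with a log2 difference of -1.64 ± 0.65 (adjusted p = 0.0491). The KO call held in every alternative that kept Id1, with values of -2.30 without KO footprint replicate 1 and -3.66 without KO footprint replicate 2. Asking at least 20 reads of every library removed Id1, so that setting gave no value for it in either genotype. The WT call was lost without WT input replicate 1 (-1.66) or without WT input replicate 2 (-1.61). The WT value also spanned -2.66 without WT footprint replicate 1 to -0.61 without WT footprint replicate 2. Among 10453 genes ordered from the highest ratio, Id2 stood at 4257 in KO and 3970 in WT, Id3 at 7428 and 6440, and Id1 at 10067 and 9140. The order Id2, Id3, Id1 was the same in both genotypes.

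**Figure D3:**
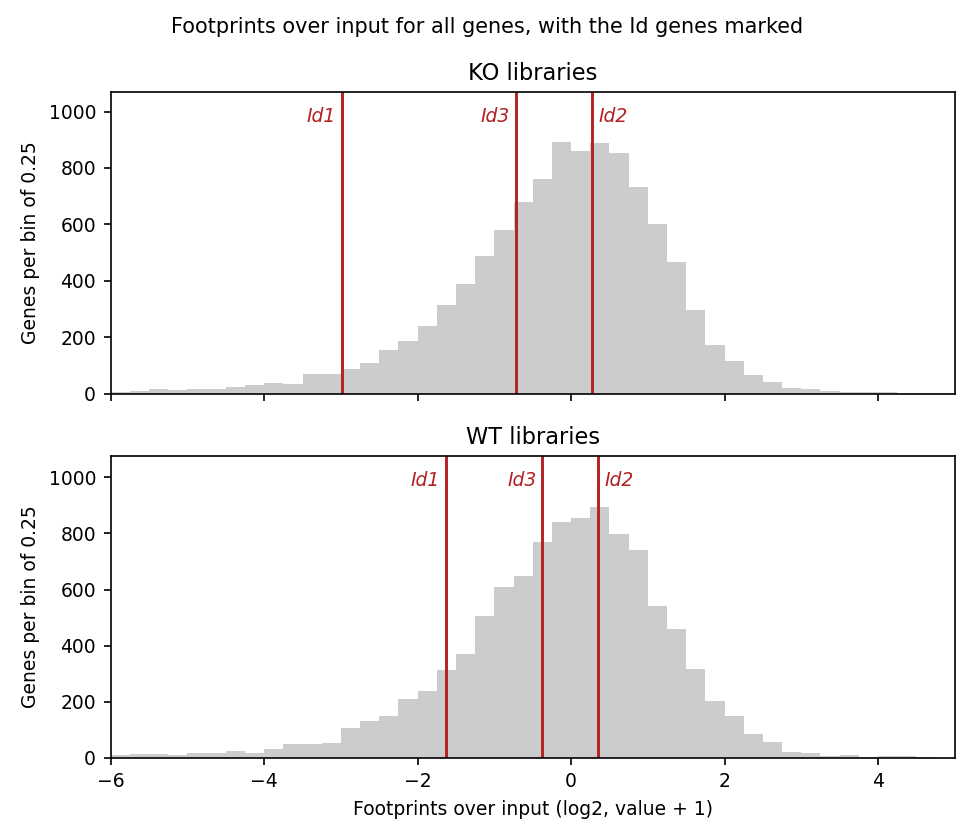
Histograms of the log2 difference of footprints over input (x axis, log2 of value + 1) for all genes in KO libraries (top) and WT libraries (bottom), with genes per bin of 0.25 on the y axis and the Id genes as red lines (genes beyond the axis are not drawn). Id2 (0.27 in KO, 0.36 in WT) and Id3 (-0.71, -0.37) lie in the body of the distribution and Id1 (-2.98, -1.64) in its lower tail.

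The genes whose pattern over the 8 libraries was most like that of Id3 were found by the root mean square log2 difference, after centring each kind of library, among 9190 genes with mean levels of at least 20 in both kinds. They were Bcan (0.0955), Cdh13 (0.164), Mgll (0.239), Nr4a3 (0.242) and Prss12 (0.275). Bcan encodes brevican, a matrix proteoglycan, Cdh13 a cadherin anchored in the membrane by a lipid, and Mgll a lipase of monoacylglycerols. Nr4a3 encodes an orphan nuclear receptor and Prss12 a secreted serine protease. Bcan, the nearest, had input means of 99.3 in KO and 35.4 in WT, and footprint means of 109 in KO and 44.1 in WT. Cdh13 had input means of 147 in KO and 59.5 in WT, and footprint means of 560 in KO and 214 in WT. For Id2 the nearest were Phkb (0.0395), Mri1 (0.0484) and Phldb3 (0.0496), which is closer than any gene came to Id3. For Id1 the nearest were Atp6v0c (0.390), Car12 (0.480) and Nipal3 (0.482). Id1 itself is under the level asked of the candidates, and the counting error of its 1 to 6 reads per footprint library enters each of these distances, so they say little of its likeness. These likenesses describe 2 genotypes measured in 2 libraries each.

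The pathway genes were described by lists that run from BMP ligands to the partners of the Id proteins. Input calls covered 36.4% of all genes (17.9% higher and 18.6% lower in KO), footprint calls 12.5% (6.3% higher and 6.22% lower) and efficiency calls 9.78% (5.11% higher and 4.66% lower). Over all the pathway lists together, 122 of 201 listed symbols were in the table, and 21 rose and 29 fell in input, 41.0% of those present. In footprints 12 rose and 4 fell (13.1%), and in efficiency 7 rose and 6 fell (10.7%). These shares are near those of all genes. The union mixes lists of different roles, which are given singly below. Without trended variances limma called only 8 higher and 10 lower in input and none higher or lower in footprints, where 21 had an unadjusted p under 0.05, edgeR called 17 and DESeq2 4. Without WT input replicate 2 or without KO input replicate 2, 19 fell in input. In footprints 7 rose without WT footprint replicate 1, while 2 fell without WT footprint replicate 1, 1 without WT footprint replicate 2 and 8 without KO footprint replicate 1. Without any one input library, 1 rose and 2 fell in efficiency, and 11 fell without KO footprint replicate 1.

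Of the ligands of the BMP and TGF-beta family, 6 of 28 were in the table, and 3 of these fell in input and none rose. Gdf11, a ligand that signals through activin receptors, was at 97.2 and 93.0 normalized reads in KO input against 133 and 126 in WT input (log2 -0.44 ± 0.087, limma adjusted p = 8.17e-05). Tgfb2 (-0.32, adjusted p = 0.0401) and Tgfb1 (-0.85, adjusted p = 0.0278) were close to the threshold. The Tgfb1 call was lost without WT input replicate 2 (-0.58) or KO input replicate 1 (-0.66). The Tgfb2 call was lost without WT input replicate 2 (-0.23), KO input replicate 1 (-0.38) or KO input replicate 2 (-0.26). In footprints limma called 0 of the 6, with 1 at an unadjusted p under 0.05, and edgeR and DESeq2 called 0. The median of the list was -0.38 in input, against 0.0022 over all genes.

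Of the receptors, 13 of 16 were in the table, and 2 rose and 5 fell in input (median -0.072). None rose without KO input replicate 2, 1 rose without WT input replicate 2 or KO input replicate 1, and 3 fell without KO input replicate 1. Bmpr2, the type II BMP receptor, was at 807 and 828 normalized reads in KO input against 995 and 1016 in WT input (log2 -0.30 ± 0.032, limma adjusted p = 4.92e-10). Acvr2a, a type II receptor shared by activins and BMPs, fell by 0.37 on the log2 scale (adjusted p = 0.000119). Bmpr1a, a type I BMP receptor, was at -0.18 (adjusted p = 0.00285), a call lost without KO input replicate 1 (-0.13). In footprints these 3 did not pass, and 2 other receptors rose. There edgeR called 2 of the 13, while DESeq2 and limma without the variance trend called 0. Acvrl1, the endothelial type I receptor, was at 0.35 ± 0.10 (adjusted p = 0.0230), and did not pass without WT footprint replicate 2 (0.30) or KO footprint replicate 2 (0.33). Eng, the co-receptor endoglin, was at 0.24 ± 0.063 (adjusted p = 0.0115), and did not pass without WT footprint replicate 1 (0.17) or KO footprint replicate 2 (0.20). Eng input was slightly lower in KO (log2 -0.093 ± 0.026, adjusted p = 0.00385).

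All 8 SMADs were in the table, and in input 2 rose and 1 fell (median 0.044). Smad9, a receptor-activated SMAD of the BMP branch and itself a BMP target, was at 81.6 and 81.7 normalized reads in KO input against 52.3 and 54.6 in WT input, 1.53-fold higher (log2 0.60 ± 0.11, limma adjusted p = 3.39e-05). Smad6, an inhibitory SMAD that BMP signals induce, was at 54.6 and 61.3 in KO input against 45.9 and 37.7 in WT input (log2 0.47 ± 0.13, adjusted p = 0.00530). Its call was lost without WT input replicate 2 (0.33) or KO input replicate 2 (0.39). Smad2, a receptor-activated SMAD of the TGF-beta branch, fell by 0.23 (adjusted p = 0.000929). The others did not pass, with log2 differences of 0.026 for Smad1 and 0.046 for Smad5, the other BMP-branch SMADs, 0.042 for Smad3, -0.014 for the common partner Smad4 and 0.13 for the inhibitory Smad7. In footprints limma and DESeq2 called 0 of the 8, with 0 at an unadjusted p under 0.05 in either, and edgeR called 0 of 5 fitted, with 1 at an unadjusted p under 0.05. The footprint median was 0.34, against 0.0047 over all genes, and 1 SMAD was called higher without KO footprint replicate 2. Smad9 footprints stood on 21 reads in KO and 18 in WT and Smad6 footprints on 9 and 7, so changes of the size seen in input were not detectable there.

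Among the other BMP target genes 10 of 20 were in the table, and 4 rose in input and none fell (median 0.18). Without the variance trend limma called 1 higher, and with all libraries fitted together 0. In footprints the median of the list was 0.47, with 1 member higher. The 4 include Smad9 and Smad6, described above. Junb, an AP-1 transcription factor, was at 153 and 147 normalized reads in KO input against 99.8 and 119 in WT input (log2 0.46 ± 0.086, limma adjusted p = 3.84e-05). Its footprints were at 217 and 239 in KO against 144 and 98.9 in WT (log2 0.93 ± 0.20, adjusted p = 0.00209), a call lost without WT footprint replicate 2 (0.66). Tbx2, a T-box repressor expressed in melanocytes, rose by 0.17 in input (adjusted p = 0.000197). The share of 4 in 10 higher compares with 17.9% of all genes, and no test of the list was made. Each of these input differences was smaller than those of Id3 and Id1, from which nothing is read because the Id genes were chosen on this contrast.

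Extracellular modulators of BMP signals had 8 of 21 members in the table. Their log2 differences ran from -0.14 to 0.86 in input and from -0.069 to 1.225 in footprints. In input limma called 0, with 1 at an unadjusted p under 0.05, while edgeR and DESeq2 called 0 and limma without the variance trend called 1 higher. For their footprints limma, edgeR and DESeq2 called 0. Regulators of SMAD activity had 16 of 17 in the table, and 1 rose and 4 fell in input. None rose without WT input replicate 1, KO input replicate 1 or KO input replicate 2, and 2 fell without WT input replicate 2 or KO input replicate 2. The calls of Usp9x and Usp15 held without any single library. Usp9x and Usp15, deubiquitinases that act on SMAD4 and on receptor-activated SMADs, fell by 0.17 (adjusted p = 6.83e-07) and by 0.19 (adjusted p = 3.07e-05). In footprints 0 of the 16 passed in limma, with 1 at an unadjusted p under 0.05. There edgeR and DESeq2 called 0, and limma with all libraries fitted together called 1 higher and 1 lower.

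The E proteins, which the Id proteins bind, were all in the table (3 of 3) and moved little. Tcf12 was at 1678 and 1697 normalized reads in KO input against 1756 and 1875 in WT input (log2 -0.10 ± 0.026, limma adjusted p = 0.00154), a call lost without WT input replicate 2 (-0.057). Tcf4 was at 355 and 354 in KO input against 390.2 and 392 in WT input (log2 -0.14 ± 0.047, adjusted p = 0.0150), and did not pass without KO input replicate 1 (-0.15) or KO input replicate 2 (-0.14). Tcf3 was at 666 and 662 in KO input against 651 and 649.9 in WT input and did not pass (log2 0.030). In footprints limma, edgeR and DESeq2 called 0 of the 3, each with 0 at an unadjusted p under 0.05, and the log2 differences were -0.0053 for Tcf12, -0.15 for Tcf4 and -0.16 for Tcf3.

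**Figure D4:**
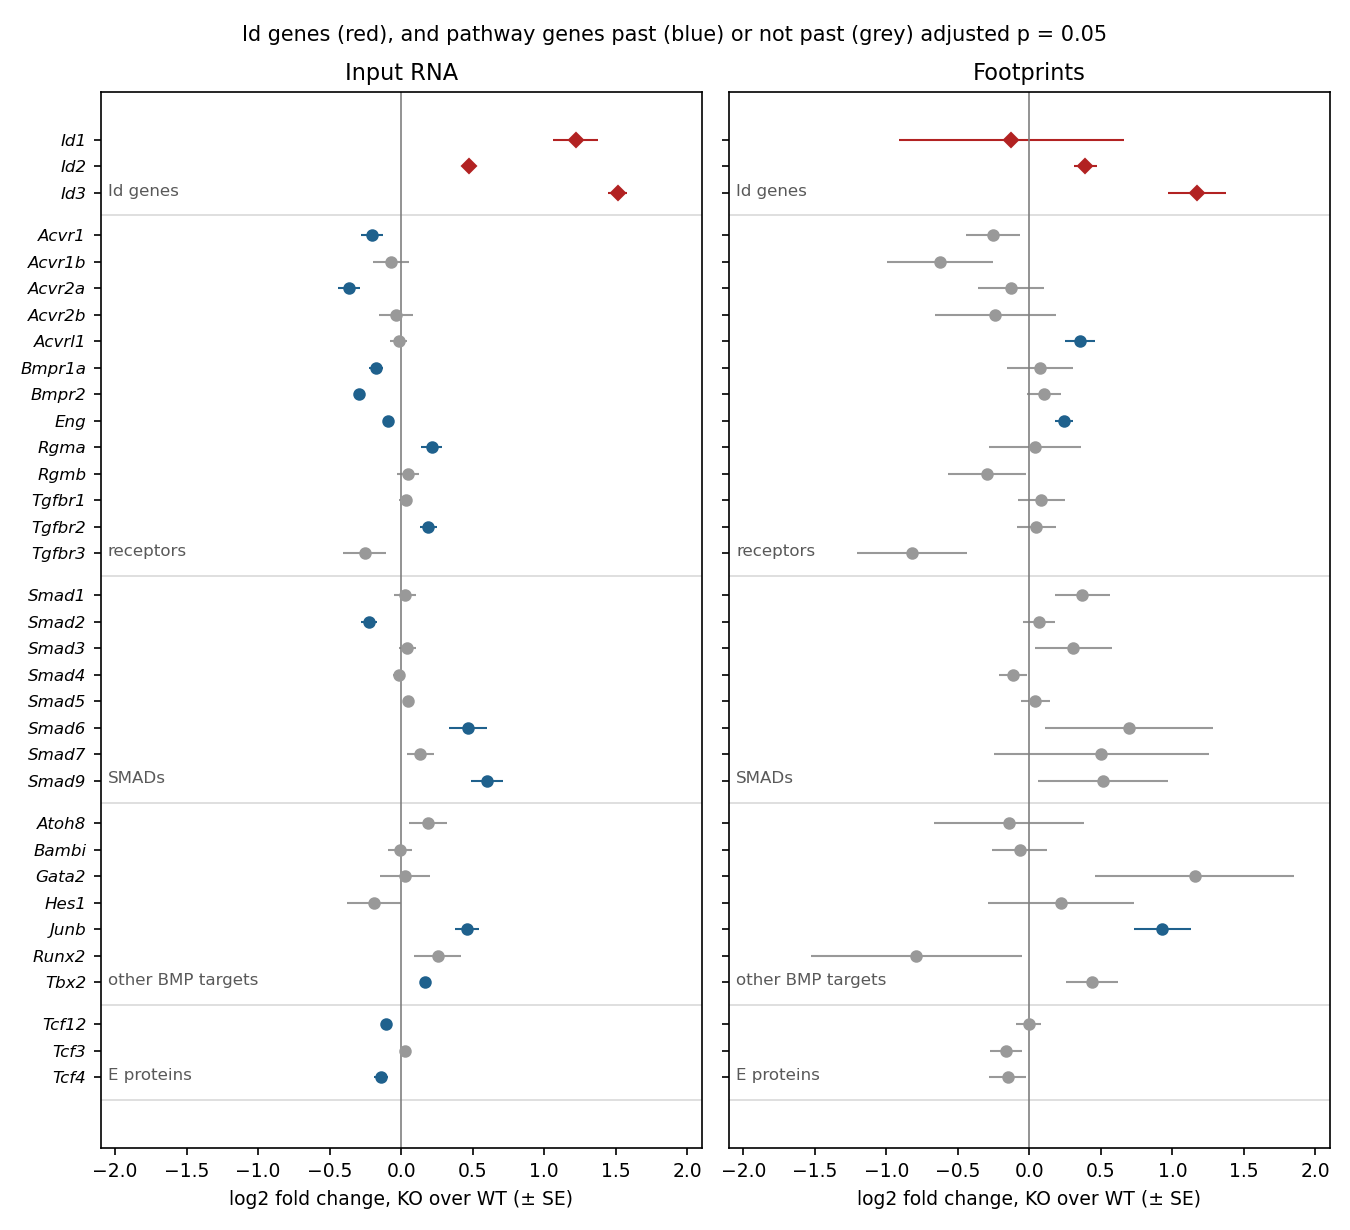
Log2 difference of KO over WT (x axis, ± SE) in input RNA (left) and footprints (right) for the Id genes (red), the receptors, SMADs, other BMP targets not already shown as SMADs, and E proteins, in blue where limma's adjusted p was under 0.05 and in grey where not. In input Id3 (1.51) and Id1 (1.22) lie right of every pathway gene shown, the nearest being Smad9 (0.60). Lists not drawn here hold larger values than that of Smad9, up to 0.86 among the extracellular modulators. The Id genes were chosen on the rise of Id3, so nothing is read from their place beside the other genes.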

How the data were processed

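Members and gene lists were chosen with earlier results of these data known. The authors deposited 1 table of normalized read counts per gene (10453 genes, 8 libraries, 2 per group), treated here as signal. The submitters' processing notes list Bowtie and mm10 without version or role. Not given in the sources used here are the counter, the annotation, strand and how reads with several matches were treated. Per the labels, input is described both as polyadenylated and as depleted of ribosomal RNA, and which holds could not be settled. Dividing by the value of 1 read gave whole reads for 100% of values within 0.001, and 0 sample columns were left unmapped. For translational efficiency the authors gave a log2 fold change, p-value, adjusted p-value and call, per the file headers, without naming the test. Every listed gene had at least 1 read in each library. IDs matched the name table for 10452 genes, and 16 symbols turned into dates were restored.

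Values were tested as log2(value + 1) with limma-trend in limma 3.58.1 under R 4.3.3, keeping genes whose mean was at least 1. Differences are on that scale, which understates changes of low genes. Two-sided p-values were adjusted by Benjamini-Hochberg over all genes, with a threshold of 0.05. Input, footprints and each within-genotype contrast were fitted alone. Efficiency was tested as a genotype by library kind interaction in 8 libraries. Errors are SE of a log2 difference or SD of levels. Intervals are exact and at 95%. Named genes are the Id genes, the E proteins, the SMADs, up to 4 called and non-overlapping members per list and comparison with the smallest adjusted p, and the nearest genes to each Id gene. Replicates of a group differed by more than counting alone, by 1.1 to 1.22 times the counting variance. Alternatives were edgeR 4.0.16 and DESeq2 1.42.0 on recovered reads, other pseudocounts, filters and scalings, no variance trend, all libraries fitted together, a replicate block and leaving out each library. On simulated counts, genes changed by 1 on the log2 scale were recovered in 96.0% of cases in input, 72% in footprints and 57% in efficiency. The simulation gave every gene the same small spread beyond counting, so these shares need not hold for the real libraries.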

Additional observations from a re-analysis of the deposited data

Results flagged for a closer look

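The KO-to-WT difference in footprints departed from that in input in 13 genes of the lists, 7 higher and 6 lower, by the interaction test over 8 libraries (limma adjusted p under 0.05). The 11 of them that the rule for named genes takes are given here. No Id gene is among them, since these values of the Id genes were not tested. Over all genes, 9.78% passed this test, and no explanation was tested for any of the values below.

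Of these 11, 5 had a negative departure. Atf3, a stress-induced repressor reported to act on human ID1, was at -1.88 (adjusted p = 0.00436), with 0.66 in input and -1.22 in footprints. Its footprint difference did not pass without WT footprint replicate 1 (-1.15) or 2 (-1.30), or without the variance trend (limma, adjusted p = 0.196). Its input difference did not pass in DESeq2 (adjusted p = 0.0631) or with all libraries fitted together (limma, adjusted p = 0.105). With at least 20 reads asked of every library, regulators of Id transcription lower in efficiency went from 2 to 1. Cdkn2c, a cyclin-dependent kinase inhibitor, was at -1.24 (0.048 in input, -1.19 in footprints). Cdkn1a, which encodes p21, was at -0.52 (0.017 in input, -0.51 in footprints). Ets1, a factor whose activity Id proteins are known to restrain, was at -0.26 (-0.083 in input, -0.35 in footprints), and Myc was at -0.23 (0.057 in input, -0.18 in footprints).

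The other 6 had a positive departure. Clock, a circadian factor, was at 1.08 (-0.14 in input, 0.94 in footprints) and Klf10, a TGF-beta target, at 1.02 (-0.060 in input, 0.96 in footprints). Rbl2, which encodes the retinoblastoma relative p130, was at 0.33 (0.65 in input, 0.99 in footprints) and Eng at 0.33 (-0.093 in input, 0.24 in footprints). Mitf, the melanocyte lineage factor, was at 0.32 (-0.10 in input, 0.22 in footprints), and Bhlhe41 at 0.29 (0.20 in input, 0.49 in footprints). Without any one input library, the calls of Bhlhe41 (0.26 to 0.32), Cdkn1a (-0.57 to -0.48), Cdkn2c (-1.27 to -1.20), Clock (1.05 to 1.11), Eng (0.32 to 0.35), Klf10 (0.89 to 1.15), Myc (-0.26 to -0.21) and Rbl2 (0.30 to 0.37) were lost. Those of Cdkn1a (-0.41), Cdkn2c (-1.01) and Myc (-0.20) were also lost without WT footprint replicate 2, 1 and 1, in that order. The calls of Atf3, Ets1 and Mitf held without any single library. Without the variance trend, limma lost Ets1 (adjusted p = 0.111), Mitf (adjusted p = 0.101) and the other named genes except Atf3. Cdkn2c was also lost in edgeR (adjusted p = 0.103) and DESeq2 (adjusted p = 0.152), and Rbl2 in DESeq2 (adjusted p = 0.0709). The authors called Clock and Klf10 up and the others neither up nor down.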

How the results depend on the processing

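No result changed direction past its threshold. Without single libraries, the KO to WT difference of Id3 ranged from 1.465 to 1.561 in input and from 1.059 to 1.286 in footprints. That of Id2 ranged from 0.445 to 0.507 in input and from 0.348 to 0.436 in footprints. Fits without the variance trend, with all libraries together or with a replicate block keep these differences by design, so they are no check of them. Id1 input moved to 1.08 with a pseudocount of 5, 1.26 in edgeR and 1.26 in DESeq2. Id1 footprints over input in WT no longer passed with a pseudocount of 0.5 (-1.75), median centring (-1.41), no variance trend (-1.64) or DESeq2 (-1.38), and ranged from -2.66 to -0.61 without single libraries. Id3 footprints over input in WT no longer passed with median centring (-0.15) or DESeq2 (-0.38), and ranged from -0.42 to -0.33 without single libraries. Same-numbered libraries did not deviate together (correlations of -0.024 to 0.0032). Replicates differed by only 1.1 to 1.22 times the counting variance, so pairing by number could go unseen and is not settled. With a replicate block, Id3 in WT was at -0.37 with an adjusted p of 0.0578, and Sp1 input was the only other named result lost. Of the counts of calls, the block moved by over 1.5 times those of 2 single lists, regulators of Id transcription lower in input (2, and 1 with the block) and receptors higher in efficiency (1, and 2 with the block). Input calls over all genes (3803) numbered 1276 without the variance trend, 829 with all libraries fitted together, 1721 in DESeq2 and 2856 to 3442 without single libraries. Footprint calls (1309) numbered 0 without the trend (limma, 1807 at an unadjusted p under 0.05, 1473 by edgeR), 2313 fitted together, 460 in DESeq2 and 788 to 1391 without single libraries. Efficiency calls (1021) numbered 133 without the trend and 419 to 1719 without single libraries. For the pathway lists together, genes higher in input (21) numbered 8 without the trend, 5 fitted together, 9 in DESeq2 and 15 to 18 without single libraries, and those lower (29) numbered 10, 1, 11 and 19 to 27. Genes higher in footprints (12) numbered 0 without the trend, 3 in DESeq2 and 7 to 13 without single libraries, and those lower (4) numbered 0 without the trend, 9 fitted together, 1 in DESeq2 and 1 to 8 without single libraries. Genes higher in efficiency (7) numbered 0 without the trend and 1 to 10 without single libraries, and those lower (6) numbered 1 and 2 to 11. Of 61 results for named pathway genes, 4 were called in every alternative. The fewer calls without single libraries come with fewer samples, and the cause of the others was not tested. Depth limits Id1 most, with 4 footprint reads in KO and 7 in WT.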

Other observations

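Partners and regulators of the Id proteins were described from the same kind of lists, chosen with results known. Of the other basic helix-loop-helix factors, 31 of 51 were in the table, and in input 8 rose and 6 fell, with 5 higher without KO input replicate 1. Tal1, a blood and endothelial factor that needs an E protein partner, was at 18.7 and 21.9 normalized reads in KO input against 43.5 and 44.4 in WT input (log2 -1.08 ± 0.16, limma adjusted p = 1.12e-06). Bhlhe41, a repressor of the circadian clock, rose by 0.20 in input and by 0.49 in footprints. Among proteins of Id turnover (6 of 7 in the table) 2 rose and 1 fell in input, with 1 higher without WT input replicate 1 or KO input replicate 1. Of these, Usp1, the deubiquitinase known to stabilize Id proteins, fell by 0.16 (adjusted p = 5.89e-06).

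Cell cycle inhibitors and other Id partners had 12 of 15 members in the table, with 1 higher and 4 lower in input. Rbl2, of the retinoblastoma family that Id2 binds, was at 910.2 and 955 normalized reads in KO input against 593 and 591 in WT input (log2 0.65 ± 0.035, adjusted p = 2.25e-18). Its footprints were at 648 and 662 in KO against 324 and 336 in WT (log2 0.99 ± 0.11, adjusted p = 1.46e-07). Cdkn1b, the kinase inhibitor p27, fell by 0.28 in input (adjusted p = 2.67e-05). Among regulators of Id transcription (11 of 13 in the table) 2 rose and 2 fell in input. There 1 fell without either WT input library or with the replicate block, and none without KO input replicate 2 or in DESeq2. Of the TGF-beta targets, 8 of 15 were in the table, with 1 higher and 1 lower in input. The lower one, Thbs1 (-0.21, adjusted p = 0.0439), was not called without WT input replicate 2 (-0.15), KO input replicate 1 (-0.25) or KO input replicate 2 (-0.17), nor in edgeR or DESeq2, while Fn1, which encodes fibronectin, rose by 0.20 (adjusted p = 2.05e-08). The background for each of these input counts is 17.9% higher and 18.6% lower over all genes.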
